A study of Mus musculus with 10 samples.

Results

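The genes described here encode the proteases that cut prohormones into peptides, the enzymes that trim the cut ends, and the small secretory proteins that assist or hold back those proteases. They are 10 of the 53801 genes in the count table, taken by name from a list of prohormone-cleaving enzymes and their partners that was drawn up with earlier results of these data known: the convertases *Pcsk1*, *Pcsk2*, *Pcsk5*, *Pcsk6*, *Pcsk7* and *Furin*, the convertase partners *Pcsk1n* and *Scg5*, and the carboxypeptidases *Cpe* and *Cpd*. RNA was sequenced from AtT20 cells (AtT20/D16v-F2), a mouse pituitary tumour line of corticotroph type, that had been stably transduced with lentivirus. One line carried a non-targeting shRNA, a short hairpin RNA without a target gene, and served as control, and the other carried an shRNA against *Creb3l1*, a membrane-bound transcription factor of the CREB3 family, with 5 libraries for each line. The comparison asked which genes change when *Creb3l1* is knocked down. In the sequencing each hairpin was represented by a single line, so the knockdown and any other difference between the lines cannot be told apart. The p-values measure only the spread between libraries of 1 line each. The study also made a line with another *Creb3l1* hairpin, which is not among these libraries.

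Prohormones enter the secretory pathway as long precursors that are cut after pairs of basic residues. In corticotrophs PC1/3, the product of *Pcsk1*, cuts pro-opiomelanocortin (POMC) to release ACTH, while PC2, the product of *Pcsk2*, acts further along the chain and is most abundant in the melanotrophs of the intermediate lobe. PC2 needs the chaperone 7B2, encoded by *Scg5*, to mature, and proSAAS, encoded by *Pcsk1n*, holds PC1/3 inactive until it is itself cut. Carboxypeptidase E removes the basic residues left at the new end of the peptide, and carboxypeptidase D does similar work in the trans-Golgi network, where furin and PC7 process growth factors and receptors on the constitutive route.

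Between 17420698 and 22205107 reads were counted on genes per library, and 14336 genes held enough of them to be tested. With edgeR's quasi-likelihood test and a Benjamini-Hochberg adjusted p under 0.01, 5837 genes (40.7%) changed, so a call was common in this comparison. Control replicate 3 stood apart. Its counts differed from those of each other control library by a chi-square of 64.3 to 73.1 per degree of freedom, against 1.85 to 2.92 among the other 4 and 2.28 to 9.23 among the knockdown libraries, and its TMM factor was 0.953 while the other 9 libraries were within 0.01 of 1. Without it the same 4 of the 10 genes described here were called. *Creb3l1* itself was lower in every knockdown library, with normalised counts (counts scaled to the mean library size by TMM factors) of 1014 to 1159 against 3531 to 3864 in the control line. The corticotroph identity of both lines was checked with *Pomc*, *Tbx19*, *Neurod1*, *Crhr1*, *Pitx1* and *Nr3c1*, all 6 of which were detected and tested, although 5 of the 6 differed between the lines. *Pomc*, *Tbx19* and *Nr3c1* were called lower in the knockdown line, and *Neurod1* and *Pitx1* were called higher. *Crhr1* was low, at 21.2 to 37.7 normalised counts in control and 17.1 to 43.6 in knockdown libraries, and was not called. The melanotroph marker *Drd2* and the lineage markers *Prl*, *Pou1f1*, *Tshb* and *Fshb* were at 0 in all libraries, as were the endothelial *Cdh5* and the leukocyte *Ptprc*. The other markers of these lists were not all absent, low or equal. *Pax7*, of melanotrophs, was at 9.05 to 19.7 normalised counts in control and 2.84 to 7.45 in knockdown libraries, *Nr5a1*, of gonadotrophs, at 69.8 to 94.1 and 51.2 to 70.2, and *Cd68* at 33.9 to 51.9 and 24.6 to 38.2, while *Gh* and *Lhb* had at most 1.88. *Pecam1*, of endothelium, was called lower, at 10.6 to 18.3 and 4.28 to 7.45 (log2 fold change -1.08, edgeR adjusted p = 0.0063). The summed normalised count of 4 fibroblast markers was 814 to 1153 in control and 943 to 1681 in knockdown libraries, almost all of it from *Col1a1* and *Col1a2*, and the part of these markers in the results below was not tested.

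Of the 10 genes, 9 were tested and 4 were called. *Pcsk6* and *Pcsk2* rose, beside 20.6% of all genes tested called in that direction, and *Pcsk1* and *Cpd* fell, beside 20.1%. The same 4 genes had normalised counts that did not overlap between the lines, a pattern found in 36.0% of all genes tested. With 40.7% of genes called in either direction, 4 of 9 is close to the background, and the median log2 fold change of the 9 genes was 0.0093 against -0.0025 over all genes tested. The genes are therefore described below one by one and not as a group that moved together.

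The plot of fitted changes shows the 9 tested genes in order beside *Creb3l1* and *Pomc*.

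**Figure D1:**
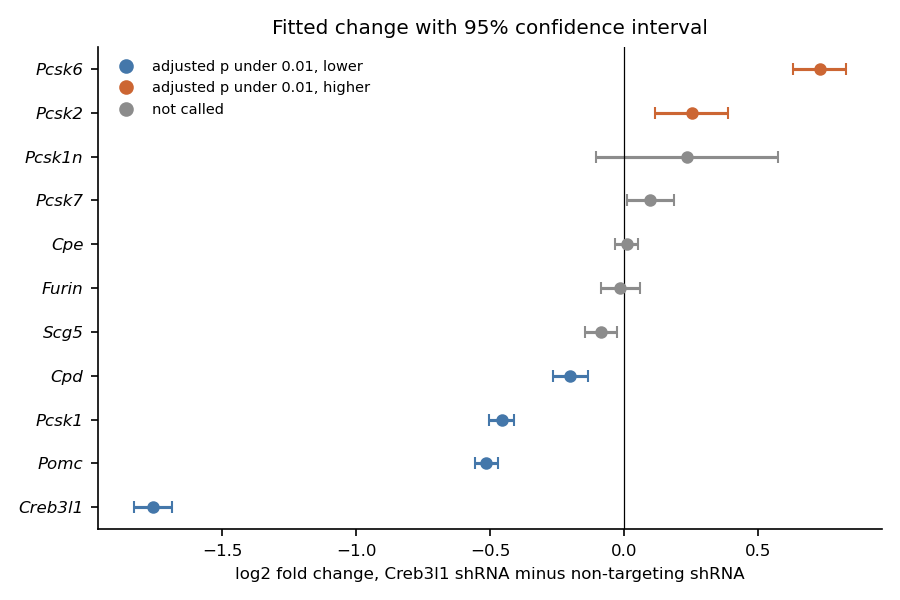
Log2 fold change of each gene (x axis, Creb3l1 shRNA minus non-targeting shRNA, edgeR fit of 5 against 5 libraries), with bars for the 95% confidence interval and colours for the call at an adjusted p under 0.01. *Pcsk6* at 0.73 and *Pcsk2* at 0.25 lay above 0, *Cpd* at -0.20 and *Pcsk1* at -0.46 lay below it, and *Pcsk1n* had the widest interval of those drawn, from -0.10 to 0.57.

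*Pcsk1* (ENSMUSG00000021587, chromosome 13 from 75089826 to 75134861 of GRCm38, plus strand, 14 exons in its longest coding transcript) was the convertase with the highest level in both lines. Its promoter is shown because the study tested it as a target of Creb3l1 and because it holds the G-box core GACGTG, a word that CREB3 family factors are known to bind. The *Furin* and *Scg5* promoters are shown beside it because they were the only others to hold that word among the genes with a matched promoter, which *Cpe* lacked. The windows surround the RefSeq start on GRCm38.p6, most of each lying before it, and are written 5′ to 3′ on the strand of the gene, and capitals mark GACGTG and the CRE half-site TGACG on either strand, merged where they overlap.
*Pcsk1*, chr13:75089607-75089906, plus strand: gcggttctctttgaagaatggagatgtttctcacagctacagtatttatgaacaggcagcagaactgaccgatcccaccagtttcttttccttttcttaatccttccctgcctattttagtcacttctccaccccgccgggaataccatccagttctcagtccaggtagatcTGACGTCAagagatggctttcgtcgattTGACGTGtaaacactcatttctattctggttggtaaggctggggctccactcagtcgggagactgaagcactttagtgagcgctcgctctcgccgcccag
*Furin*, chr7:80405387-80405686, minus strand: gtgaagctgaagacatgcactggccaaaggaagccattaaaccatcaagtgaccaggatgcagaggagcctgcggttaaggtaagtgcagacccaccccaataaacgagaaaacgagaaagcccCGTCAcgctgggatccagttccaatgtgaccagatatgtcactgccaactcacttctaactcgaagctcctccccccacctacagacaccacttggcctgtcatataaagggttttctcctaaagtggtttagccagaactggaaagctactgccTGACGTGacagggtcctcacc
*Scg5*, chr2:113829042-113829341, minus strand: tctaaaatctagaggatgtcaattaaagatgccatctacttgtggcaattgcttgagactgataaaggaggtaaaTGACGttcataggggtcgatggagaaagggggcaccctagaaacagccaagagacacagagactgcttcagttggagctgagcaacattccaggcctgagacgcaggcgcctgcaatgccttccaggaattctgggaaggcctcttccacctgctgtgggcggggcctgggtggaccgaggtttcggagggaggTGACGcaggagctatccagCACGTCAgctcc

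In the *Pcsk1* window the G-box core began at -49 from the start, from 75089808 to 75089813 on chromosome 13, and the letter before it completed a TGACG half-site at -50. A full palindromic CRE lay upstream, read as TGACG at -78 on the plus strand and at -75 on the minus strand. *Furin* held the G-box core at 31 bases after its start and *Scg5* held it on the opposite strand at 39, both also joined to a TGACG word. Separate TGACG words lay at -126 on the opposite strand in *Furin* and at -175 and 20 in *Scg5*. *Pcsk2* held 1 TGACG word at -34 and no G-box core. *Pcsk5*, *Pcsk6*, *Pcsk7*, *Pcsk1n*, *Cpd* and the other *Furin* start site held neither word, and CACGTG, the other G-box spelling searched, was in none of the windows. Promoters were matched for 9 of the 10 genes, with *Cpe* the exception. Among 32851 promoters of the same length, GACGTG was present in 6.38%, CACGTG in 7.15% and TGACG in 20.8%, searched on both strands. TGACG and GACGTG share 4 letters where they overlap, so the words are not independent. The 3 genes that shared the G-box core did not share a change. *Pcsk1* fell by 0.46 on the log2 scale, *Furin* had a value of -0.014, and *Scg5* a value of -0.086 that missed the threshold. In the study's reporter assays, Creb3l1 no longer activated the *Pcsk1* promoter once the G-box was deleted. Chromatin immunoprecipitation with a Creb3l1 antibody enriched that promoter in AtT20 cells treated with forskolin and IBMX, compared with vehicle. Binding to the *Furin* and *Scg5* words was not tested.

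**Figure D2:**
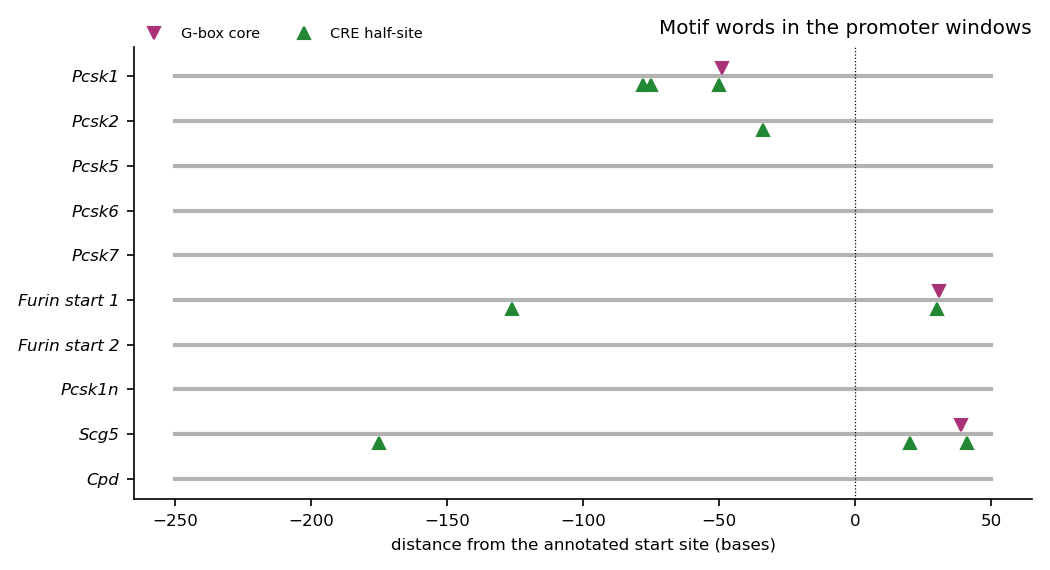
Positions of the G-box core and CRE half-site words (markers) in the promoter windows of 9 genes, as distance in bases from the annotated start site (x axis, grey bars span the window). The *Pcsk1* G-box core sits at -49, before the start, and those of *Furin* and *Scg5* at 31 and 39, after it.

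*Pcsk1* fell in the knockdown line. Its normalised counts in control replicates 1 to 5 were 9879, 9923, 10167, 9768 and 10166. In knockdown replicates 1 to 5 they were 7441, 7088, 7026, 7387 and 7402. Every knockdown library lay below every control library, and the gap between the groups was far wider than the spread within either. The mean was 9981 ± 179 (SD, n = 5) in control and 7269 ± 196 (SD, n = 5) in knockdown cells. The fall was 27.2%, or a log2 fold change of -0.46 (standard error 0.024, edgeR quasi-likelihood test, Benjamini-Hochberg adjusted p = 1.2e-19). Of the genes tested, 14.4% had a larger absolute log2 fold change.

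*Pcsk2* (ENSMUSG00000027419, chromosome 2 from 143546156 to 143816285, plus strand) moved the other way at a much lower level. The control libraries had normalised counts of 302, 268, 284, 288 and 296, and the knockdown libraries 323, 363, 351, 318 and 360. The groups did not overlap, but the highest control library and the lowest knockdown library were close. *Pcsk2* rose by 19.1%, with a log2 fold change of 0.25, a standard error of 0.067 and an adjusted p of 0.0016 by the same test. An annotated antisense pair, *Pcsk2os1* and *Pcsk2os2*, shares 359 exon bases with the gene, and the strand setting of the counting is not given in the sources used here.

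*Pcsk6*, which encodes PACE4, a convertase that binds heparan sulphate at the cell surface and in the matrix, had the largest change of the 9 genes tested. It lies on chromosome 7 from 65861734 to 66050386 on the plus strand (ENSMUSG00000030513). Its control counts were 421, 442, 439, 436 and 428, and its knockdown counts were 711, 776, 736, 674 and 699.8. All knockdown libraries stood well clear of all control libraries. The mean went from 433 ± 8.34 to 719 ± 38.8 (SD, n = 5 each), a rise of 65.9%, with a log2 fold change of 0.73, a standard error of 0.049 and an adjusted p of 3.8e-16 (edgeR quasi-likelihood). It was the only one of the 10 genes to pass a requirement of at least 1.5-fold as well, which 7.73% of all genes tested passed. It shares 156 exon bases with *Gm45213* on the same strand.

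*Pcsk5*, which encodes PC5/6, was close to undetected. The raw counts were 0, 0, 1, 0 and 1 in the control libraries and 1, 3, 0, 1 and 0 in the knockdown libraries, too few to test, and a difference was not detectable at this depth.

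*Furin* and *Pcsk7*, the convertases of the constitutive route, were not called. *Furin* (chromosome 7 from 80388585 to 80405436, minus strand) had normalised counts of 1311 to 1473, median 1414, in control and 1333 to 1453, median 1374, in knockdown libraries. The lines overlapped almost completely, with a log2 fold change of -0.014 and a 95% confidence interval from -0.086 to 0.059 (adjusted p = 0.78, edgeR quasi-likelihood). *Pcsk7* (chromosome 9 from 45906497 to 45929726, plus strand) ranged from 741 to 840.1 in control and from 816 to 911 in knockdown libraries. Its ranges overlapped, and its log2 fold change of 0.098 (95% confidence interval 0.0097 to 0.19, adjusted p = 0.059, edgeR) did not pass the threshold. *Pcsk7* shares 523 exon bases with the opposite-strand genes *Rnf214* and *Tagln*, and *Furin* shares 118 with an antisense transcript.

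**Figure D3:**
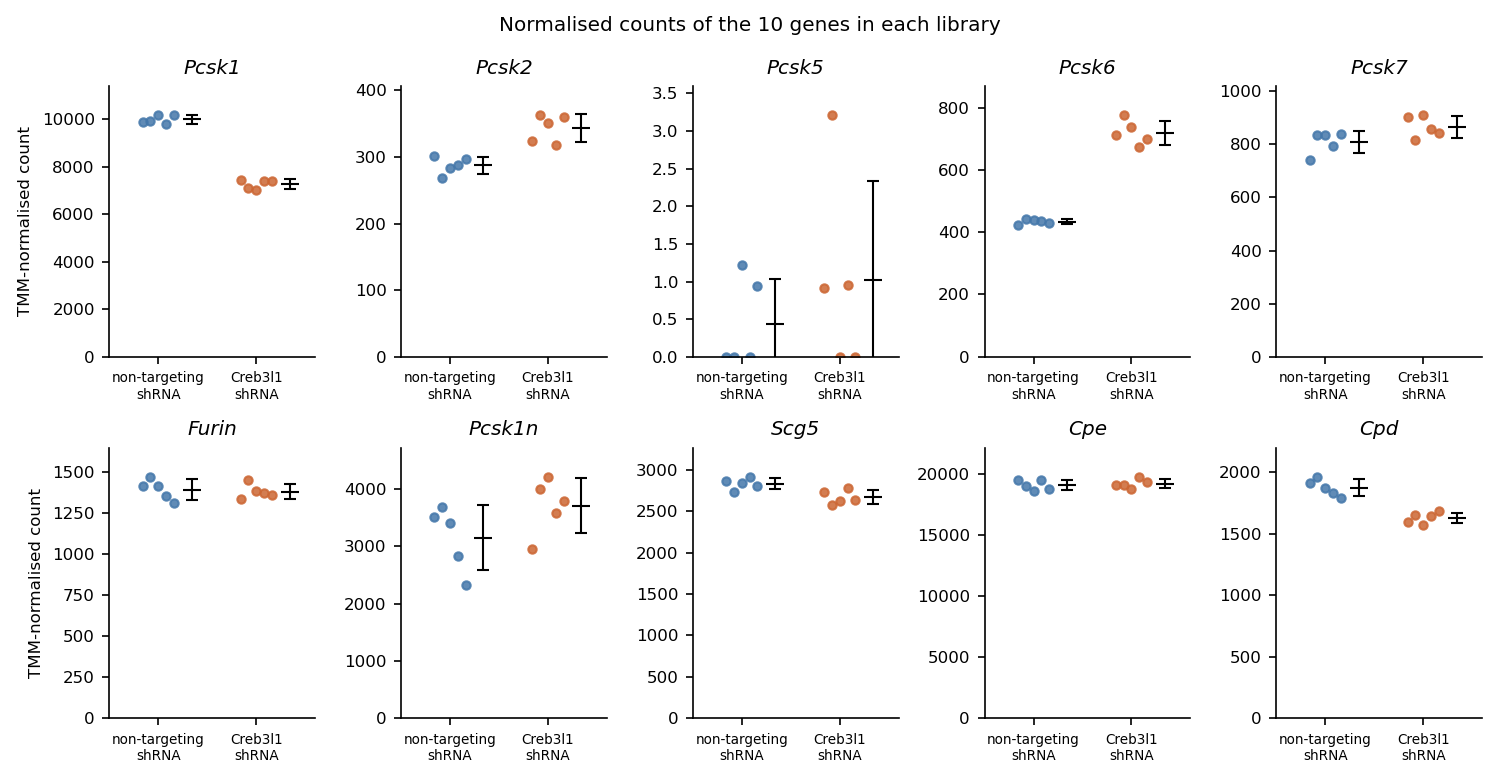
TMM-normalised counts of the 10 genes (y axes, from 0) in the 5 non-targeting and 5 Creb3l1 shRNA libraries, 1 point per library in replicate order, with the mean and SD beside them. The points of the lines separate for *Pcsk1*, *Pcsk2*, *Pcsk6* and *Cpd*, *Pcsk5* stays at 3.21 or less, and the *Pcsk1n* points spread far more than those of *Pcsk1*, *Furin*, *Scg5*, *Cpe* and *Cpd*.

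The partners of the convertases were not called. *Scg5* (chromosome 2 from 113776362 to 113829121, minus strand) had control counts of 2859, 2737, 2839, 2918 and 2805 and knockdown counts of 2737, 2570, 2627, 2774 and 2629. Knockdown replicate 4 reached into the control range, replicate 1 lay at its lower edge, and the other 3 lay below it. The fitted log2 value was -0.086 (standard error 0.029), and the adjusted p of 0.014 (edgeR quasi-likelihood) missed the threshold of 0.01. With the replicate number as a block the value was the same to 2 decimals and the edgeR adjusted p was 0.0049, which passes it. Same-numbered replicates did not pair, however. The edgeR adjusted p was 0.073 with library totals as the only scaling. With the correction for GC content and length described below it was 0.89, at a log2 value of -0.0049.

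*Pcsk1n* (ENSMUSG00000039278, chromosome X from 7919822 to 7924410, plus strand, 3 exons) had control counts of 3510, 3695, 3399.9, 2829 and 2321 and knockdown counts of 2961, 3995, 4219.8, 3577 and 3789.6. Control replicates 4 and 5 and knockdown replicate 1 were low within their lines, and the lines overlapped. The mean was 3151 ± 566 in control and 3709 ± 481 in knockdown cells (SD, n = 5 each). The log2 change of 0.24 had a standard error of 0.15 and a 95% confidence interval from -0.10 to 0.57 (adjusted p = 0.22, edgeR), so neither a fall of a few percent nor a rise of the size of that in *Pcsk2* lay outside it. The value was 0.15 without control replicate 5 and 0.31 without knockdown replicate 1, and was not called with any library left out. *Pcsk1n* shares 135 exon bases with *Eras* on the opposite strand.

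The spread of *Pcsk1n* was larger than counting allows. Its coefficient of variation was 18.0% in the control line and 13.0% in the knockdown line, against 1.81% and 1.63% from counting alone. Only 8 of the 5257 genes whose mean normalised count reached 1000 varied more in the control line (0.152%) and 90 in the knockdown line (1.71%), where the medians were 3.10% and 3.47%. With the library-specific correction for GC content and length described below it was 18.0% and 11.5%. The other 8 tested genes had coefficients of variation between 1.79% and 6.07%.

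The carboxypeptidases differed from each other. *Cpd* (chromosome 11 from 76778424 to 76847018, minus strand) had control counts of 1909, 1965, 1869, 1833 and 1789.6 and knockdown counts of 1596, 1648, 1573, 1644 and 1681. No library of either line entered the range of the other. The fall was 13.0%, with a log2 fold change of -0.20, a standard error of 0.032 and an adjusted p of 1.4e-06 (edgeR quasi-likelihood). *Cpe* (chromosome 8 from 64592542 to 64693054, minus strand) ranged from 18614 to 19547 in control and from 18775 to 19799 in knockdown libraries, and the ranges coincided over most of their width. Its log2 fold change was 0.0093, with a 95% confidence interval from -0.033 to 0.052 and an adjusted p of 0.74 (edgeR), so a change as large as that of *Cpd* lay outside the interval.

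These values used 1 scaling factor per library. A fit that also corrected each library for smooth trends with GC content and length kept the 4 calls and added *Cpe*, at 0.063, and *Pcsk7*, at 0.13, as higher, which made 6 of the 9 genes called, 4 of them higher. The same fit called 42.9% of all genes, and 22.7% of all genes as higher, so the background rose as well. It moved *Cpd* to -0.31 and brought *Scg5* to -0.0049.

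Levels were compared between genes in RPKM (reads per kilobase of exon scaled to library size). In the control line *Cpe* was at 361 ± 8.17 RPKM (SD, n = 5), rank 66 of 14315 genes. *Scg5* at 89.0 ± 2.10 and *Pcsk1* at 87.8 ± 1.57 were next and did not differ beyond their spread. *Pcsk1n* stood at 70.9 ± 12.7, and the remaining genes were far below, from *Cpd* at 11.1 through *Pcsk7* at 7.67, *Furin* at 7.49 and *Pcsk6* at 4.12 to *Pcsk2* at 1.79. *Pcsk7* and *Furin* were likewise within each other's spread.

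In the knockdown line *Cpe* stayed at 363 ± 7.15 RPKM, while *Pcsk1* went to 64.0 ± 1.72 and from rank 455 to rank 689. *Pcsk1* was then below both *Scg5* (83.8) and *Pcsk1n* (83.4), which did not differ beyond their spread. *Pcsk6* was at 6.84 and *Furin* at 7.42. Part of this order depends on the length used. With the longest coding transcript in place of all exons, *Furin* was at 15.9 and above *Cpd* (11.6) and *Pcsk7* (10.3) in control cells, and *Scg5* (116) was clear of *Pcsk1* (97.7). In knockdown cells *Furin* (15.7) was then well above *Pcsk6* (8.05), and *Scg5* (108.9) was above *Pcsk1n* (83.4) by more than their spread.

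**Figure D4:**
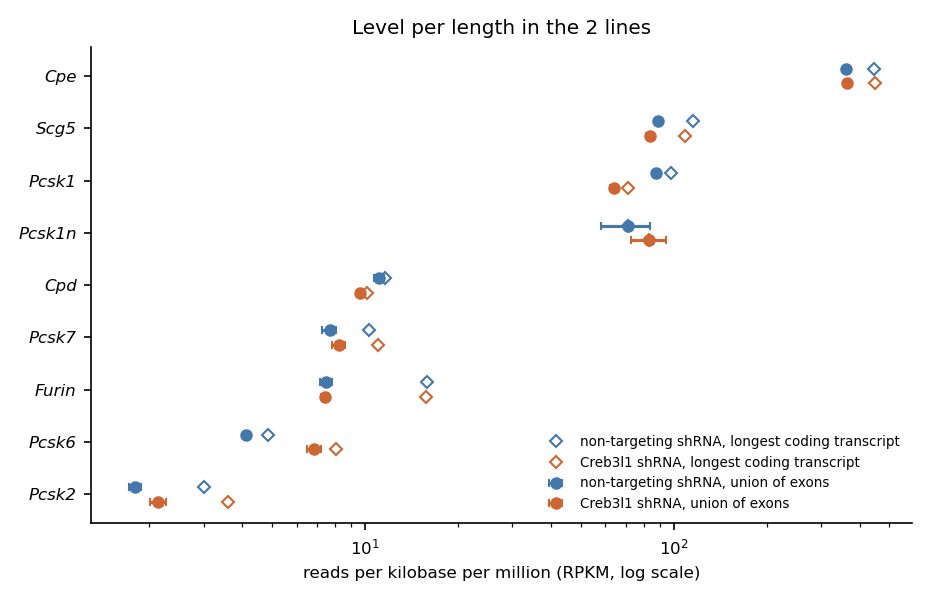
Level per length (RPKM, log x axis) of the 9 tested genes in the 2 lines, as mean and SD of 5 libraries by the union of exons (filled circles) and as the mean by the longest coding transcript (open diamonds). *Cpe* leads at about 361 in control cells, 3 genes cluster between 70.9 and 89.0, and *Furin* moves most between the length definitions, from 7.49 to 15.9.

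Summed over the 6 convertases, *Pcsk1* made up 80.7% ± 0.367 of the level per length in control cells and 72.2% ± 1.01 in knockdown cells (SD, n = 5). The share of *Pcsk6* was 3.78% in control and 7.72% in knockdown cells, and that of *Pcsk2* was 1.65% and 2.42%. By coding transcript length the *Pcsk1* share was 74.2% and 65.0%. PC1/3 transcripts thus remained the majority among these 6 in both lines under either length. Among others, *Pcsk4* and *Mbtps1* of the wider convertase family were left out of the sum. By the union of exons their mean levels were 4.06 and 22.1 RPKM in control cells and 3.41 and 21.9 RPKM in knockdown cells. These shares are a description, and RNA levels do not measure protein or activity.

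Ratios within a library set each enzyme against its partner or its substrate, as counts per exon base. The ratio of *Pcsk1n* to *Pcsk1*, inhibitor to enzyme, was 0.908, 0.952, 0.855, 0.740 and 0.583 in the control libraries and 1.02, 1.44, 1.53, 1.24 and 1.31 in the knockdown libraries. The lines did not overlap, with means of 0.808 ± 0.148 and 1.31 ± 0.199 (SD, n = 5). The log2 difference was 0.70 (standard error 0.16, two-sided exact permutation p = 0.0079, the smallest that 5 against 5 libraries allow, and 0.011 adjusted by Benjamini-Hochberg over the 4 ratios tested). *Pcsk1n* alone was not called, so this difference combines a called fall of *Pcsk1* with an uncalled value of *Pcsk1n*.

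The ratio of *Scg5* to *Pcsk2*, chaperone to enzyme, was 49.7 ± 1.80 in control and 39.4 ± 3.68 in knockdown libraries, ranging from 47.8 to 51.5 and from 35.7 to 43.9. The ranges did not overlap, and the log2 difference was -0.34 with a standard error of 0.064 (exact permutation p = 0.0079, adjusted 0.011). With the correction for GC content and length, *Scg5* was at -0.0049 and *Pcsk2* at 0.21. The ratios were not run with that correction, only with the replicate block and with each library left out. 7B2 transcripts thus outnumbered PC2 transcripts many times over in both lines.

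*Pomc*, the main prohormone of these cells, fell from 131411 ± 4050.2 to 92045 ± 2652 normalised counts (log2 fold change -0.51, standard error 0.021, adjusted p = 1.2e-16, edgeR). By quantitative PCR, however, the study found *Pomc* mRNA unchanged in its *Creb3l1* knockdown lines, which included a line with another hairpin. Its western blots showed less POMC prohormone after knockdown and no change in an ACTH intermediate. Why the RNA measurements differ was not tested. The ratio of *Pcsk1* to *Pomc* was 0.0167 to 0.0185 in control and 0.0179 to 0.0199 in knockdown libraries. These ranges overlapped, and the log2 difference of 0.056 had a standard error of 0.038 (exact permutation p = 0.21, also after adjustment). The ratio of *Cpe* to *Pomc* was 0.0735 ± 0.00230 in control and 0.106 ± 0.00244 in knockdown libraries, without overlap, with a log2 difference of 0.52 and a standard error of 0.025 (exact permutation p = 0.0079, adjusted 0.011). *Cpe* alone had a log2 fold change of 0.0093, so this difference restates the fall of *Pomc* and is not a separate result.

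**Figure D5:**
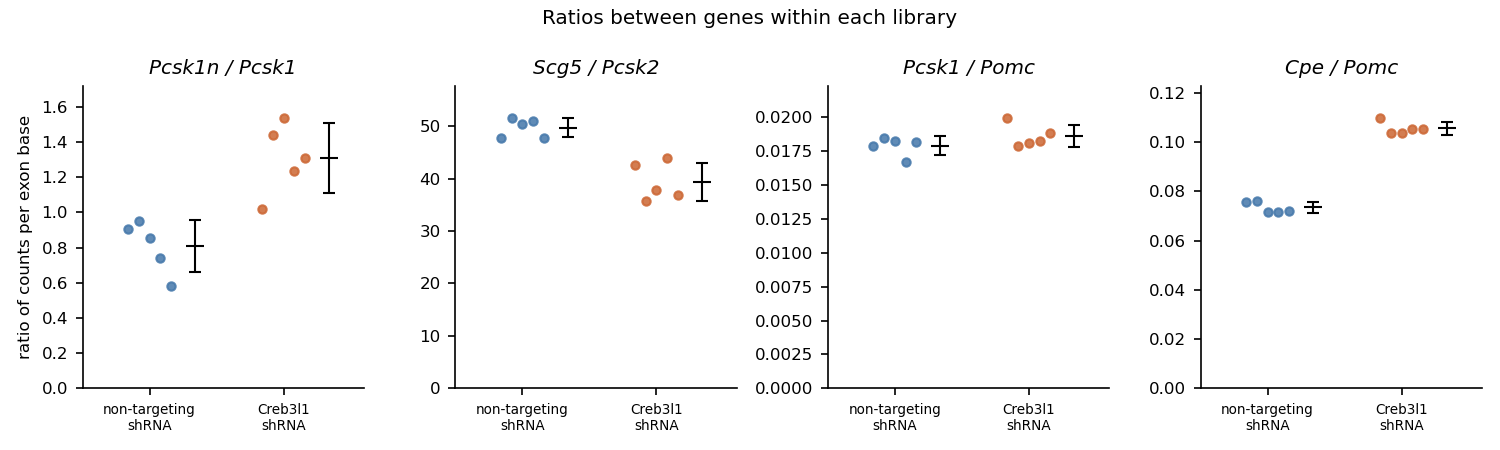
Ratios of counts per exon base (y axes, from 0) within each library, 1 point per library with the mean and SD beside them. The 5 Creb3l1 shRNA libraries lie above all control libraries for *Pcsk1n* to *Pcsk1* and *Cpe* to *Pomc*, below them for *Scg5* to *Pcsk2*, and overlap them for *Pcsk1* to *Pomc*.

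Of the wider convertase family, *Pcsk4* and *Mbtps1* were tested, and 1 of the 2 was called. *Pcsk4*, a convertase best known from germ cells, was at 227 to 260 normalised counts in control and 181 to 229 in knockdown libraries, with a log2 fold change of -0.25, a standard error of 0.078 and an adjusted p of 0.0062 (edgeR). Its ranges overlapped by 1 library, and the call was lost with DESeq2 and with library totals as the only scaling. It was also lost without any 1 of control replicates 1, 2 or 5 or knockdown replicates 1, 2 or 5. *Mbtps1*, which encodes site-1 protease, the enzyme that starts the release of CREB3 family factors from the Golgi membrane, ranged from 4602 to 4865 normalised counts in control and from 4511 to 4844 in knockdown libraries and was not called (log2 fold change -0.013). Among 6 other carboxypeptidases of the same family, *Cpm* was the only one with enough counts to test and was not called (adjusted p = 0.55), and *Cpn1* was at 0.

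Enzymes that trim or modify peptides after the convertases moved in both directions. Of 13 listed, 12 were tested and 7 called, 4 higher and 3 lower, beside 40.7% of all genes tested called, 20.6% higher and 20.1% lower, with a median log2 fold change of 0.071. *Pam*, which amidates peptide ends, rose from 2523 ± 105.2 to 2819 ± 62.4 normalised counts (log2 fold change 0.16, adjusted p = 2.8e-05, edgeR). *Tpst1*, a tyrosylprotein sulphotransferase, rose by 0.21 on the log2 scale, and *Rnpep*, aminopeptidase B, rose by 0.16. *Qpctl*, a Golgi glutaminyl cyclase, fell by 0.17, and *Ctsl*, the lysosomal and granule protease cathepsin L, fell by 0.12. None of the 7 reached 1.5-fold.

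Among the substrates, 11 of 26 prohormones and granins were tested and 6 were called, 4 higher and 2 lower, beside the same 40.7%, 20.6% and 20.1% of all genes, with a median log2 fold change of 0.24. *Scg2* rose by 0.91 on the log2 scale, *Iapp* by 0.36 and *Chgb* by 0.34, while *Vgf* fell by 0.48 and *Pomc* by 0.51. The list includes 11 prohormone genes at 0 in all libraries, among them *Npy*, *Sst*, *Avp*, *Crh* and *Trh*. Of 16 proteins usually cut by furin-type convertases, 8 were tested and 5 called, 2 higher and 3 lower, again beside 40.7% of all genes called. *Insr*, the insulin receptor, fell by 0.52 and *Lrp1* by 0.15, *Atp6ap1*, a subunit of the proton pump, had a log2 fold change of -0.087, and *Gdf11* rose by 0.47 and *Adam10* by 0.19, while *Furin* itself was not called. The median over this list was 0.033.

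The genes whose 10 library values, relative to their own control mean, were nearest to those of *Pcsk1* among 11000 genes (mean normalised count 100 or more) were *Atp1b1*, a sodium pump subunit, *Tnks2*, *Ift122*, *Zmynd19* and *Tmem161a*. Their root mean square differences from *Pcsk1* on the log2 scale were between 0.020 and 0.035, and their own log2 fold changes were between -0.42 and -0.47. None of the other convertase or carboxypeptidase genes was among them.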

How the data were processed

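Poly(A)-selected, stranded libraries of AtT20 cells were sequenced in pairs by the authors, aligned with STAR to GRCm38 and counted on Ensembl genes with featureCounts. The deposited values are whole-number counts per gene without normalisation, and the strand setting of the counting is not given in the sources used here. Errors from counting are largest where reads are few, as for *Pcsk5*. The study calls its replicates biological.

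The analysis used R 4.3.3 and edgeR 4.0.16 (TMM factors, filterByExpr, robust quasi-likelihood test, no covariate, Benjamini-Hochberg over 14336 genes, threshold 0.01), with DESeq2 1.42.0 as an alternative, and in Python 3.11.15. Symbols, positions, overlaps and lengths came from GENCODE M21, which named 53620 of 53801 identifiers. RPKM used the TMM-scaled counts and the union of exons, with 14315 genes ranked. The 4 ratios used two-sided exact permutation tests over libraries. Promoters came from RefSeq on GRCm38.p6. The edgeR fit was tested on simulated data.

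The genes and lists were chosen with earlier results of these data known. Genes named from a list were those called at an adjusted p under 0.01 with a mean normalised count of 100 or more, up to 5 per list by absolute log2 fold change. The others named, *Mbtps1*, *Cpm*, the marker genes and *Jund*, were named to account for their lists or after their values were seen.

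Alternatives changed the test (DESeq2), the scaling (RLE or library totals only, or offsets for GC content and length), the filter (none, or 10 counts per library), the threshold (adjusted p under 0.05, or also 1.5-fold), the design (replicate block) and the libraries (each left out in turn). Coding transcript length was added after the data were seen. Same-numbered replicates did not pair (correlations of their deviations between -0.062 and 0.038). No pair of libraries in a group agreed within sampling noise (chi-square per degree of freedom of at least 1.85).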

Additional observations from a re-analysis of the deposited data

Results flagged for a closer look

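In groups of 5 libraries, a library was picked out when its gap to the nearest other exceeded 0.710 of the range of the group (Dixon's value). This occurred in 4 of 72 groups, where chance gives about 1 in 20, or 3.60, and in none of the 10 convertase, partner and carboxypeptidase genes. *Gdf11* was at 174 normalised counts in Creb3l1 shRNA replicate 1, against 119 to 134 in the other 4. *Tnks2* was at 3502 in Creb3l1 shRNA replicate 2, below 3638 to 3685 in the others. *Ift122* was at 2155 in non-targeting replicate 4, below 2203 to 2218, and *Zmynd19* was at 1870.3 in non-targeting replicate 2, above 1799 to 1816.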

How the results depend on the processing

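Of 197 values computed under alternatives for the 13 fold changes and ratios, 187 kept their direction and their side of the threshold, and of 209 values for the 11 counts of genes called, 190 were within 1.5 times the reported count. The fold changes of *Pcsk1* (-0.54 to -0.44), *Pcsk2* (0.21 to 0.28), *Pcsk6* (0.70 to 0.75) and *Cpd* (-0.31 to -0.18) kept both under all 17 alternatives run for each. Requiring 1.5-fold left 1108 genes, 470 higher and 638 lower, and 1 of the 10 genes (1 higher, 0 lower), with 0 other convertases, 0 trimming enzymes, 1 prohormone or granin and 0 furin-type substrates. Offsets for GC content and length gave 4 genes of the 10 called higher, beside 3250 of all genes in place of 2958, with *Pcsk7* at 0.13 (edgeR adjusted p = 0.0083, against 0.020 to 0.20 under its other alternatives) and *Cpe* at 0.063 (0.0018, against 0.48 to 0.98), and the cause was not tested. The other convertases had 0 called with DESeq2 and with library totals only, and between 0 and 1 with each library left out. Without non-targeting replicate 2 *Furin* was at 0.0093 (range with each library left out -0.033 to 0.0093), and *Cpe* turned to -0.0026 without non-targeting replicate 3 and to -0.00078 without Creb3l1 shRNA replicate 4 (range -0.0026 to 0.021), all uncalled. *Scg5* was called without Creb3l1 shRNA replicate 4, at -0.10 (adjusted p = 0.0065, against 0.0049 to 0.89 under its alternatives), with a range of -0.10 to -0.071 over the libraries left out.

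With the replicate block, *Scg5* was called at -0.086 (edgeR adjusted p = 0.0049) and 6013 genes were called in place of 5837. The ratios of *Pcsk1n* to *Pcsk1* (0.70), *Scg5* to *Pcsk2* (-0.34) and *Cpe* to *Pomc* (0.52) then had an exact sign-flip p of 0.0625, the smallest that 5 pairs allow, which cannot pass 0.05. The replicate block changed no other call among the 10 genes and the ratios, and no gene of the 10 was lost under it. *Pcsk5* has no value under any alternative because it was not tested.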

Other observations

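The genes that followed the spread of *Pcsk1n* were looked up after its values were seen. Among the 5257 genes whose mean normalised count reached 1000, the deviations of *Jund*, which encodes the AP-1 subunit JunD, from the mean of each line correlated most closely with those of *Pcsk1n*, followed by *Irf2bpl* and *Cox5a*. In control replicates 1 to 5 *Pcsk1n* deviated on the log2 scale by 0.18, 0.25, 0.13, -0.14 and -0.42, and *Jund* by 0.061, 0.13, 0.085, -0.066 and -0.21. In knockdown replicates 1 to 5 the deviations were -0.31, 0.12, 0.20, -0.042 and 0.042 for *Pcsk1n* and -0.19, 0.090, 0.090, -0.010 and 0.022 for *Jund*. *Jund*, *Irf2bpl* and *Cox5a* were picked by this correlation, so their agreement with *Pcsk1n* follows from the choice and is not a separate result. *Pcsk1n* and *Jund* stood on the same side of their line mean in 10 of 10 libraries, with standard deviations of 0.23 and 0.12. Libraries low for *Pcsk1n* were low for *Jund*. The transcript of *Jund* holds 67.1% GC, that of *Irf2bpl*, on the same side in 10 of 10 libraries, 60.0% and that of *Pcsk1n* 57.3%, while that of *Cox5a*, on the same side in 9 of 10, holds 41.6%. The highest GC content in any stretch of 200 bases was 82% in *Jund*, 77% in *Pcsk1n*, 76% in *Irf2bpl* and 68% in *Cox5a*, against a median of 69.5% over the genes compared. Of those, 20.4% had a higher value than *Pcsk1n*. *Cpe* also reached 77%, *Cpd* 82.5% and *Pcsk6* 86.5%, with coefficients of variation between 1.93% and 5.39% in the lines. The rest of the 10 genes lay between 57.5% and 75.5%. Unlike *Pcsk1n*, *Jund* was called, with a log2 fold change of -0.42 (edgeR quasi-likelihood adjusted p = 0.0021), and what the libraries low for both genes shared was not tested.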
